A study of Homo sapiens with 48 samples.

Results

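The comparison described here set control U2OS cells given dexamethasone for 4 h against control cells given none. It used 16 of the 48 arrays in the study, 8 at 4 h and 8 at 0 h, chosen by their titles alone. U2OS is a human osteosarcoma cell line, and the cells here were 1 clone that stably carried the wild-type rat glucocorticoid receptor α, so every group shared that transgene. For each time, 4 control wells received no siRNA (NI) and 4 received 60 pmol per well of a nonspecific siRNA (siNS) with Lipofectamine RNAiMAX. Hormone was added 3 days after transfection for the 4 h wells and all wells were collected together, in medium with 5% fetal bovine serum; the labels give neither the dose of hormone nor the handling of the 0 h wells. The rest of the study consisted of the same control cells at 2 and 24 h and of cells with siRNA against the coregulator Hic-5.

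Dexamethasone is a synthetic glucocorticoid. It binds the glucocorticoid receptor, which leaves its chaperones in the cytoplasm, enters the nucleus, and raises transcription of some genes by binding DNA at glucocorticoid response elements. The same receptor lowers transcription of many inflammatory and growth-related genes, often at sites held by AP-1 or NF-κB, which is the basis of the anti-inflammatory use of these drugs. In bone-forming cells glucocorticoids are also known for effects on differentiation, fuel use and growth-factor signalling.

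RNA was measured on Illumina bead arrays, and each level below is a deposited log2 value of a gene's probe, so that a difference of 1 is a 2-fold change. The 16 arrays had a median raw intensity between 134.8 and 193 and between 33.1% and 37.3% of probes above the negative controls, with overlapping ranges at 0 and 4 h. The first principal component held 36.9% of the variance and separated all 0 h arrays from all 4 h arrays. The second held 26.8% and set the 4 arrays numbered 1 apart from the other 12. A limma fit with transfection state and replicate number as blocks called 3099 of 11886 genes (26.1%) at a Benjamini-Hochberg adjusted p under 0.05. Of these, 1380 genes (11.6%) rose and 1719 (14.5%) fell. Among the called genes, 46 had no array above background at either time. For 97 of the 812 called genes with several kept probes, the probes differed in sign. Without the arrays numbered 1, 1101 genes rose and 1336 fell, and without the replicate block 887 rose and 995 fell. Nothing in the labels says whether replicates came from separate cultures, so these p-values measure only the spread between the samples.

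Most of the changes were small, and the largest were rises. The median absolute difference of the called genes was 0.44, and 259 genes rose by 2-fold or more against 194 that fell by as much. Beyond 4-fold, 80 genes rose and 36 fell. The 8 arrays at 4 h did not overlap with the 8 at 0 h for 739 genes (6.22%), 399 of them higher and 340 lower at 4 h. The 15 largest rises and 15 largest falls described below were picked from these genes. The median difference over all genes tested was -0.01. All 10 measured reference genes and all 16 ribosomal protein genes missed the threshold, with median differences of 0.04 and -0.02. In bulk RNA, less RNA per cell and fewer cells expressing a gene cannot be told apart.

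**Figure D1:**
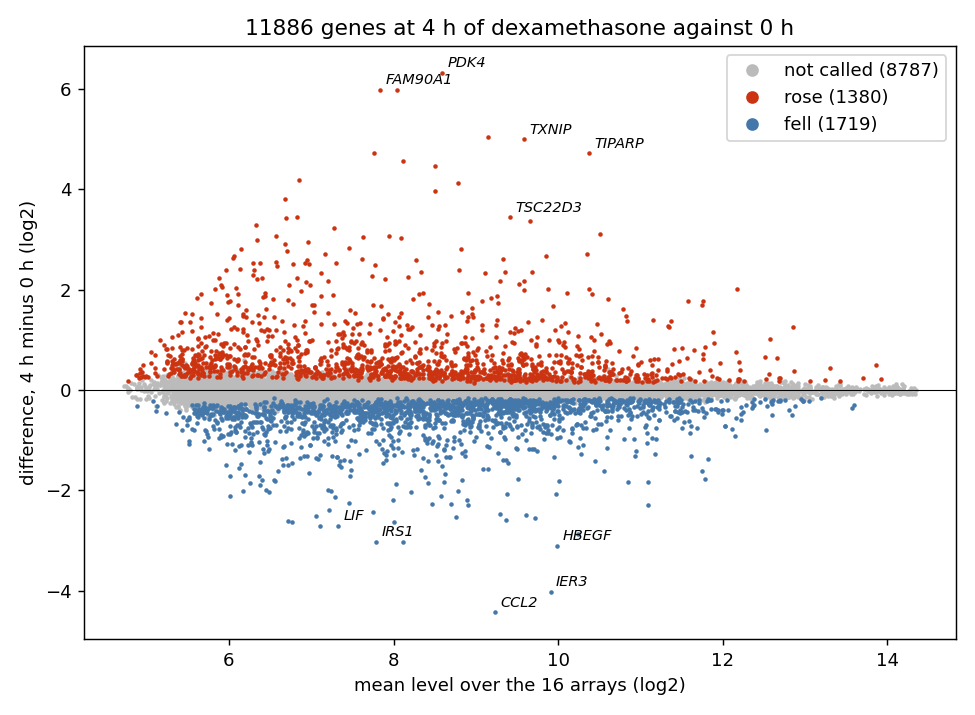
Difference between 4 h and 0 h of dexamethasone (log2, vertical axis) against the mean level over the 16 arrays (log2, horizontal axis) for each of 11886 genes. Red points are the 1380 genes that rose and blue points the 1719 that fell at an adjusted p under 0.05; PDK4 lies highest and CCL2 lowest.

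The largest rise was in PDK4, the kinase that switches off pyruvate dehydrogenase and so spares glucose. PDK4 ran from 4.88 to 5.94 in the 8 arrays at 0 h (median 5.32), never above background, and from 11.18 to 12.36 at 4 h (median 11.65). Since the 0 h level was only a bound, the rise was at least 50.9-fold, with a fitted difference of 6.32 (SE 0.13, limma adjusted p = 3.76e-13). All 8 pairs of arrays showed it, and the difference ranged from 5.84 to 7.12 over the 5 slides.

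TXNIP, which restrains glucose uptake and binds thioredoxin, was already measurable before hormone. It ran from 6.35 to 7.56 at 0 h (median 7.14) and from 11.49 to 12.79 at 4 h (median 12.08), a difference of 4.99 (SE 0.16). TIPARP, an ADP-ribosyltransferase known as a target of the aryl hydrocarbon receptor, ran from 7.51 to 8.43 at 0 h (median 8.07) and from 12.27 to 13.04 at 4 h (median 12.77). Its difference of 4.72 (SE 0.09) had the lowest adjusted p of all 30 genes with the largest changes, 1.56e-13. For both genes the lowest array at 4 h lay far above the highest at 0 h.

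TSC22D3 (GILZ), a leucine zipper protein that mediates part of the anti-inflammatory action of glucocorticoids, ran from 7.15 to 7.96 at 0 h (median 7.76) and from 10.92 to 11.37 at 4 h (median 11.11). Its difference was 3.44 (SE 0.09), and its 3 probes gave between 1.95 and 3.87. PHACTR3, which binds actin and protein phosphatase 1, rose by 5.04 (SE 0.15), from a median of 6.59 to a median of 11.79.

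Of the 15 largest rises, 7 were in genes with no array above background at 0 h, PDK4 among them. SPINK13, a Kazal-type serine protease inhibitor, rose at least 30.8-fold, from a median of 5.09 (4.89 to 5.17) to a median of 10.97 (10.38 to 11.88). FAM90A1 rose at least 26.9-fold, but belongs to a family of near-identical copies that its probe may not tell apart. CACNA1I, a T-type calcium channel subunit, rose at least 16.4-fold. Pancreatic lipase, PNLIP, rose at least 7.27-fold, ART3 rose at least 5.65-fold, and SGSM1 at least 5.54-fold by 1 probe, while its other probe gave a difference of 1.03. Of the 11886 genes tested, 1380 were called higher, and 51 of these had 0 of 8 arrays above background at 0 h and 8 of 8 at 4 h. Of the 1719 called lower, 9 went from 8 of 8 to 0 of 8. The detection filter could be met by arrays of any group, so genes below background at 0 h could enter through treated arrays alone.

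The other genes among the 15 with the largest rises were KCNA5 (4.56), a voltage-gated potassium channel above background in 1 of 8 arrays at 0 h, LAD1 (4.46), FLRT3 (4.13), a cell adhesion protein that binds FGF receptors, and RTL3 (3.96). The 2 probes of LAD1 gave 2.45 and 4.46. Standard errors of the 15 rises lay between 0.09 and 0.17, and none had an adjusted p over 7.49e-11.

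The largest fall was in CCL2, the chemokine that draws monocytes to inflamed tissue. CCL2 was 12.15, 9.73, 9.94 and 12.67 in NI arrays 1 to 4 and 12.66, 11.38, 10.52 and 12.47 in siNS arrays 1 to 4 before hormone. At 4 h it was 8.12, 5.27, 6.87 and 7.42 in NI and 7.86, 6.15, 6.55 and 7.88 in siNS. Baselines differed widely between replicates. Every array at 4 h lay below every array at 0 h, as the choice of these genes required. The difference was -4.43 (SE 0.23, limma adjusted p = 1.55e-09).

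IER3, an immediate-early gene that modulates cell survival, was high before hormone, from 11.12 to 12.43 (median 11.99). At 4 h it ran from 7.19 to 8.27 (median 7.93), a difference of -4.02 (SE 0.11). HBEGF, a ligand of the EGF receptor, ran from 10.90 to 12.13 at 0 h (median 11.58) and from 7.96 to 9.02 at 4 h (median 8.46), a difference of -3.10 (SE 0.11). By the rule of choice, neither gene overlapped between the times.

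IRS1, the adaptor that carries insulin and IGF-1 receptor signals to PI3-kinase, ran from 8.94 to 9.53 at 0 h (median 9.40) and from 5.80 to 6.90 at 4 h (median 6.24). It fell by 3.02 (SE 0.11), and only 5 of 8 arrays were above background at 4 h. LIF and IL11, cytokines that signal through gp130, were above background in all 8 arrays at 0 h. LIF fell from a median of 8.55 to 6.01, a difference of -2.70 (SE 0.12), with 2 of 8 arrays above background at 4 h. IL11 was above background in 0 of 8 arrays at 4 h and was at least 4.10-fold lower.

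BCL3, an atypical IκB protein, was at least 3.93-fold lower, from a range of 7.90 to 8.28 at 0 h to 5.07 to 5.87, below background, at 4 h. The remaining genes among the 15 largest falls were PRAG1 (-3.03, and -2.34 by its other probe), a pseudokinase, CXXC5 (-2.88), a zinc-finger protein that inhibits Wnt signalling, TRIM47 (-2.71), ZNF503 (-2.59), ENC1 (-2.54), TIAM2 (-2.52), an exchange factor for Rac, RAB7B (-2.50) and EVA1A (-2.48). The 2 probes of TIAM2 gave -2.52 and -0.82. None of the 15 falls had an adjusted p over 7.08e-08. All 30 of these genes changed in the same direction on each of the 5 slides, which follows from picking genes without overlap between the times. All 30 remained called when any 1 array was left out, which the same choice made likely in advance and which is no separate support.

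**Figure D2:**
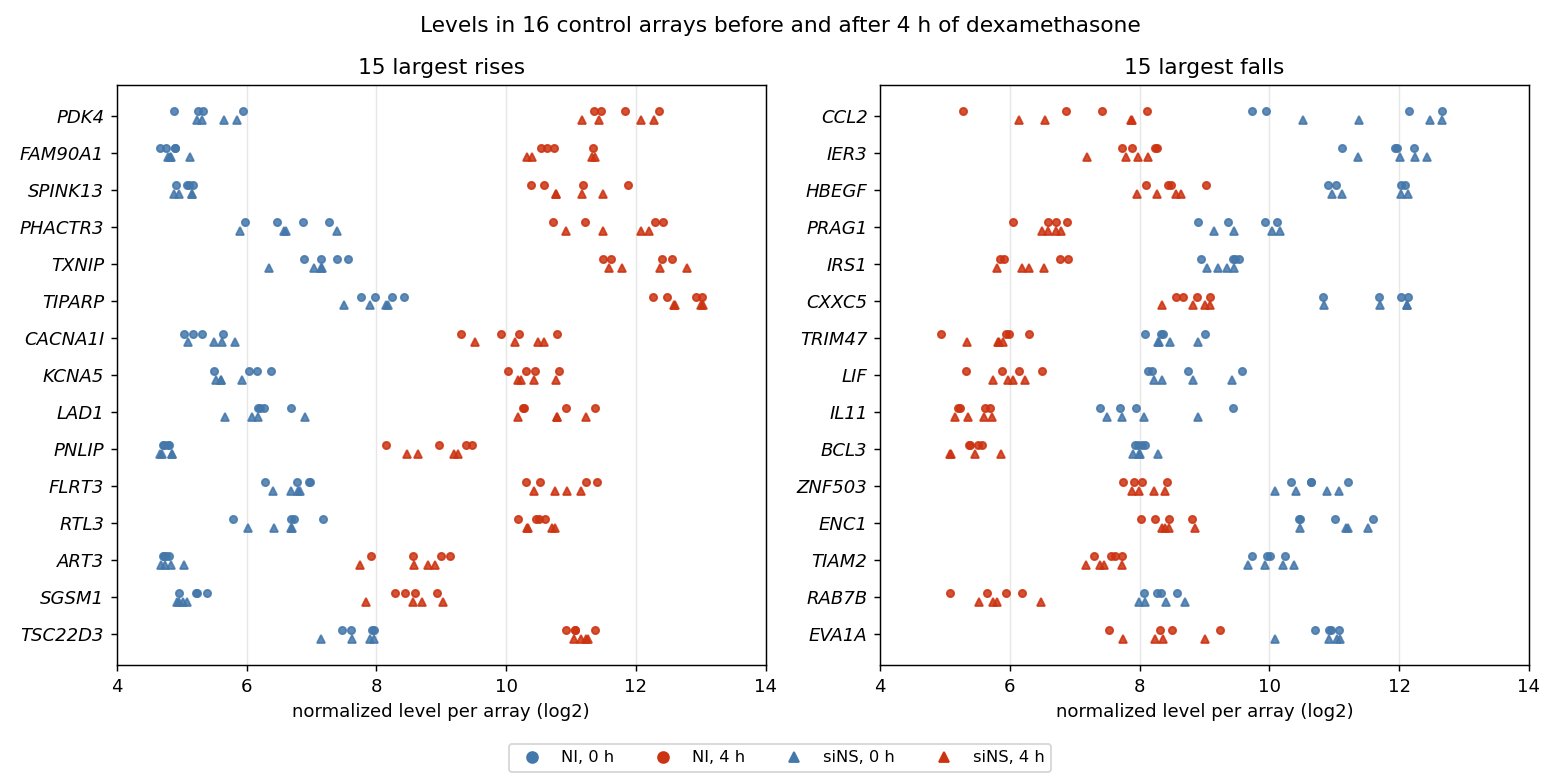
Normalized level (log2, horizontal axis) in each of the 16 arrays for the 15 genes with the largest rises (left) and the 15 with the largest falls (right). Blue is 0 h and red 4 h, circles are NI and triangles siNS. The genes were picked for not overlapping between the times. CCL2 shows the widest spread at 0 h, from 9.73 to 12.67.

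Promoter sequences from RefSeq (GRCh38.p14, from 250 bases before to 50 after each gene's start) were searched on both strands for a glucocorticoid response element, the arms AGAACA and TGTTCT with 3 bases between them and at most 2 of the 12 arm letters different, and for the AP-1 element TGANTCA. They are shown because the receptor is known to work at both kinds of element. Each gene was read by its first listed window only. Among the 13 of 15 largest rises with a sequence, SPINK13 held both elements, and among the 10 of 15 largest falls with one, EVA1A held the first and IL11 the second. The other 3 sequences come from genes that rose by 2-fold or more and were picked after their values were seen. They were the remaining holders of the first element in that window: SLAMF8 (difference 1.51), RPRML (1.31) and ASB9 (1.28). CIDEC (2.81), FAM107A (2.98) and PMEPA1 (-1.83) held the first element in another listed window and not in the first, and are not counted as holders. SLAMF8 also held an AP-1 element, which began 103 bases before the gene's start, overlaps the end of its first element and is not marked below. Capitals mark the match named on each line, and each sequence reads 5′ to 3′ on the gene's strand. Both elements read the same on either strand.
SPINK13 glucocorticoid response element, promoter chr5:148268544-148268843, plus strand: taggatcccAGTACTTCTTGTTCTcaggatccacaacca
SPINK13 AP-1 element, the same promoter: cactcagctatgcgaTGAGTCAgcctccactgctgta
EVA1A glucocorticoid response element, promoter chr2:75569670-75569969, minus strand: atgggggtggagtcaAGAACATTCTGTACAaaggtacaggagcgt
IL11 AP-1 element, promoter chr19:55370414-55370713, minus strand: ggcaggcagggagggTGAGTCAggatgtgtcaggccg
SLAMF8 glucocorticoid response element, promoter chr1:159826623-159826922, plus strand: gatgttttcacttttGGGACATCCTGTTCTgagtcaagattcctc
RPRML glucocorticoid response element, promoter chr17:46979204-46979503, minus strand: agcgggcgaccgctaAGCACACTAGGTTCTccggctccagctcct
ASB9 glucocorticoid response element, promoter chrX:15270418-15270717, minus strand: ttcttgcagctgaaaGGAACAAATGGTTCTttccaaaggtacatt

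In these windows, 1 per gene, the first element stood in 4 of 193 genes that rose by 2-fold or more (2.07%). It stood in 1 of 145 that fell as much (0.69%), beside 0.576% of the 9548 tested genes with a sequence and 1.44% of all 27305 promoters. AP-1 elements stood in 7.25% of the risers and 5.52% of the fallers, beside 4.61% of tested genes and 7.76% of all promoters. The match in SPINK13 began 241 bases before the gene's start and that in EVA1A 38 bases before it. The AP-1 match of IL11 began 96 bases before the start. These matches are letters in a short window and describe neither binding nor its absence.

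Among genes known from other work to respond to glucocorticoids, 22 of 34 measured rose (64.7%) and 2 fell (5.88%), beside 11.6% and 14.5% of all genes, with a median difference of 0.63 against -0.01 for all genes. This list and those below were chosen with earlier results of these data known, so their shares are descriptions and not tests. Besides PDK4 and TSC22D3, CRISPLD2 rose by 2.82, RGS2, a brake on Gq-coupled receptors, by 2.62, and ZFP36, which destabilizes cytokine mRNAs, by 2.00. SGK1, a kinase that promotes sodium retention, ran from 10.09 to 10.90 at 0 h and from 12.21 to 12.61 at 4 h, a difference of 1.77. FAM107A was above background only at 4 h and rose at least 3.37-fold. The 2 that fell were EDN1, the precursor of endothelin-1 (-1.71), and the stress gene GADD45B (-1.40). DDIT4 (-0.11), ANXA1 (-0.07) and MT2A (-0.08), often listed as induced, did not pass the test. MT2A had a mean of 14.34 at 0 h, close to that of ACTB (14.3), and whether its probe could read a rise at that level was not tested.

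Of 13 measured genes for receptors, chaperones and coregulators, 1 rose (7.69%) and 2 fell (15.4%), shares near the 11.6% and 14.5% of all genes. FKBP5, the co-chaperone that lowers the receptor's affinity for hormone, ran from 10.27 to 11.00 at 0 h and from 11.76 to 12.51 at 4 h, a difference of 1.38 (SE 0.10). NR3C1, the human glucocorticoid receptor gene, ran from 6.60 to 7.16 at 0 h and from 5.36 to 6.19 at 4 h, a difference of -1.04 (SE 0.11), with 2 of 8 arrays above background at 4 h. Whether its probe also reads the rat transgene was not tested. NR3C2, the mineralocorticoid receptor, fell by 1.25 (SE 0.08) with no overlap. TGFB1I1, the gene for Hic-5, ran from 9.23 to 9.84 at 0 h and from 8.87 to 9.91 at 4 h, a difference of -0.17 (SE 0.08) that did not pass (adjusted p = 0.167). HSP90AA1 (0.03) and FKBP4 (-0.11) did not pass either.

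Fuel use and insulin signalling showed 11 rises (39.3%) and 2 falls (7.14%) among 28 measured genes, beside 11.6% and 14.5% of all genes, with a median of 0.11. Next to PDK4 and TXNIP, the growth hormone receptor GHR rose by 1.68, PIK3R1, a regulatory subunit of PI3-kinase, by 1.36 (0.30 by its other probe), and the transcription factors FOXO1 and FOXO3 by 1.30 and 1.26. CIDEC, a lipid droplet protein, rose at least 2.76-fold by 1 probe (2.81), while its other probe gave 0.24. The falls were IRS1 and PFKFB3, an activator of glycolysis (-0.30). PDK2 (0.01), PDK3 (-0.03) and HK2 (0.05) did not pass the test.

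Of 24 measured cytokines and NF-κB targets, 14 fell (58.3%) and 6 rose (25%), beside 14.5% and 11.6% of all genes, with a median of -0.80. Besides CCL2, LIF, IL11 and BCL3, the chemokines CXCL8 and CCL20 fell by 2.63 and 2.08. The other probe of CXCL8 gave -3.99. By the first, CXCL8 overlapped between the times: it ran from 7.07 to 10.40 at 0 h and from 6.32 to 7.19 at 4 h. The NF-κB subunits RELB (-1.18), NFKB1 (-0.86) and NFKB2 (-0.82) fell, and RELA (-0.18) did not pass. Inhibitors stood on both sides. NFKBIA, which holds NF-κB in the cytoplasm, ran from 10.91 to 11.45 at 0 h and from 13.07 to 13.27 at 4 h, a difference of 2.02 (SE 0.08). SOCS1 rose by 0.95 and TNFAIP3 by 0.60. NFKBIE, another IκB protein, fell by 1.86, and SOCS3, an inhibitor of cytokine receptors, was at least 2.39-fold lower by 1 probe and gave -0.41 by the other. Only 3 genes of this group rose without the replicate block, against 6 with it.

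Immediate-early genes, whose products include the subunits of AP-1, showed 11 falls (57.9%) and 3 rises (15.8%) among 19 measured, beside 14.5% and 11.6% of all genes, with a median of -0.43. JUNB fell by 1.72, FOSL1 by 1.35, MYC by 1.28, FOSL2 by 0.99 and JUN by 0.55. JUNB was above background in only 1 of 8 arrays at 4 h. ARC, an immediate-early gene known from neurons, ran from 7.31 to 9.02 at 0 h and from 9.37 to 11.04 at 4 h, a difference of 1.78 (SE 0.14). FOS rose by 0.53, and the call of ATF3 (0.30) was lost without any 1 of 8 of the arrays. EGR1 (0.25), NR4A1 (-0.17) and FOSB (-0.19) did not pass. Without the replicate block, or without the arrays numbered 1, 1 gene of this group rose.

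In the EGF receptor and MAP kinase group, 6 of 17 genes rose and 6 fell, 35.3% each way beside 11.6% and 14.5% of all genes. Inhibitors of this pathway also went both ways. LRIG1, SPRY2 and the phosphatase DUSP1 rose by 0.94, 0.67 and 0.65, while SPRED2, DUSP7 and DUSP8 fell by 1.41, 0.83 and 0.55. At 4 h DUSP7 was above background in 1 of 8 arrays and DUSP8 in 4 of 8. EGFR itself rose by 0.90 by 1 probe, above background in 2 of 8 arrays at 0 h, and its other probe gave 0.07.

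BMP, Notch and TGF-β genes fell in 15 of 26 cases (57.7%) and rose in 5 (19.2%), beside 14.5% and 11.6% of all genes, with a median of -0.43. MSX2, a homeobox factor of bone formation, rose most, from a median of 5.61 (5.17 to 6.17) to a median of 8.90 (8.42 to 9.27), a difference of 3.24 (SE 0.10). At 0 h MSX2 was above background in only 1 of 8 arrays. TGFBR3, the TGF-β co-receptor betaglycan, rose by 2.35. HES1, a repressor downstream of Notch, ran from 7.85 to 8.39 at 0 h and from 5.44 to 7.13 at 4 h, a difference of -1.99 (SE 0.14). HEY1, of the same family, rose by 0.98 by 1 probe, above background in 2 of 8 arrays at 0 h, and gave 0.19 by the other. The ligands BMP4 (at least 2.43-fold lower) and TGFB2 (-1.82) fell, as did the inhibitory SMAD6 (-1.65) and SMAD7 (-1.53, and -0.98 by its other probe) and the BMP antagonist NOG (-1.27).

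**Figure D3:**
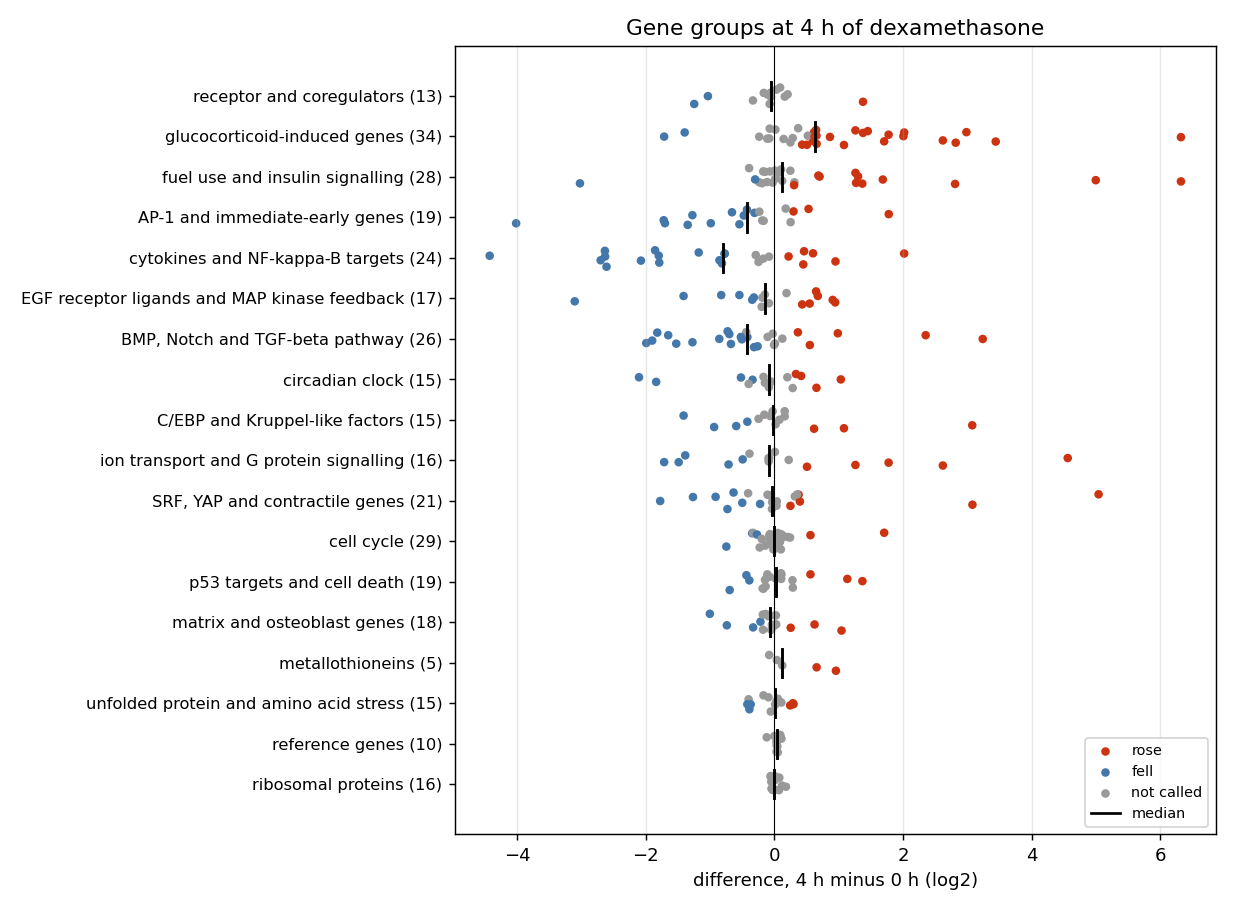
Difference between 4 h and 0 h (log2, horizontal axis) of every measured gene in 18 groups, with the number of genes in brackets. Red points rose, blue points fell and grey points did not pass the test, and the black bar is the group's median, 0.63 for glucocorticoid-induced genes and -0.80 for cytokines and NF-κB targets.

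Of 15 circadian clock genes, 4 rose and 4 fell, 26.7% each way beside 11.6% and 14.5% of all genes. NFIL3 rose by 1.03, and PER1 was above background in 0 of 8 arrays at 0 h and in 6 of 8 at 4 h, a rise of at least 1.01-fold. BHLHE40, a repressor of clock output, fell by 1.84, and its relative BHLHE41 was at least 2.02-fold lower. Among 15 C/EBP and Krüppel-like factors, 3 rose (20%) and 4 fell (26.7%), against the same shares of all genes. KLF15, a factor of amino acid and glucose metabolism, rose at least 4.09-fold, CEBPD by 1.08 and KLF9 by 0.62, while KLF10 fell by 1.41 and KLF5 by 0.94. KLF5 was above background in 1 of 8 arrays at 4 h.

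Ion transport and G protein genes were split, with 5 of 16 higher and 5 lower, beside 11.6% and 14.5% of all genes. SCNN1A, a subunit of the epithelial sodium channel, rose by 1.26, KCNN4, a calcium-activated potassium channel, fell by 1.39, and RGS4 was at least 1.58-fold lower. SRF, YAP and contractile genes showed 5 rises (23.8%) and 7 falls (33.3%) of 21. Tissue factor, F3, the trigger of coagulation, rose by 3.08, whereas FHL2 fell by 1.78, CCN1 by 1.27 and thrombospondin-1, THBS1, by 0.92.

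Among 29 cell cycle genes 2 rose (6.90%) and 3 fell (10.3%), beside 11.6% and 14.5% of all genes. CDKN1C, which encodes the inhibitor p57, rose by 1.70 (SE 0.15), CDKN1A, which encodes p21, by 0.56 (SE 0.06), and CCND1, cyclin D1, fell by 0.75 (SE 0.08). The calls of MKI67 (-0.35) and CDC25A (-0.27, and 0.01 by its other probe) were lost without any 1 of 6 and of 4 arrays, and both without NI at 0 h replicate 2 or NI at 4 h replicate 4, which left 1 fall in this group. Among 19 p53 and cell death genes, 3 rose (15.8%), among them SESN1 (1.37) and the repressor BCL6 (1.13), and 3 fell (15.8%), among them PHLDA3 (-0.70) and BCL2L1 (-0.44).

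Of 18 matrix and osteoblast genes, 3 rose (16.7%) and 4 fell (22.2%), beside 11.6% and 14.5% of all genes. CCN4 rose by 1.04 and alkaline phosphatase, ALPL, by 0.62, while the protease inhibitor TIMP3 fell by 1.00 and MMP3 by 0.74. The count that fell was 2 without any 1 of 4 arrays, which were NI at 0 h replicates 1 and 4, NI at 4 h replicate 4 and siNS at 0 h replicate 1. In 5 metallothioneins, 2 rose, MT1G by 0.95 and MT1X by 0.65, although these genes are close copies whose probes may share RNA. MT1E did not pass by the probe used (0.12), while another of its probes gave 1.51. Among 15 genes of unfolded protein and amino acid stress, 3 rose and 3 fell, 20% each way, the falls being TRIB3 (-0.42), SLC7A5 (-0.39) and HSPA5 (-0.37). The count of rises was 0 without the replicate block or with slide as a block, and 0 or 1 without any 1 of 12 of the 16 arrays.

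Of 8 mesenchymal markers 7 were measured, and 6 of them were above background in every array, with VIM highest (median 14.18 at 0 h); FN1 was above background in 3 of 8 arrays at 0 h and 2 of 8 at 4 h. CDH2 fell by 0.20, as did COL1A1 by 0.22, a call lost without any 1 of 6 arrays, and the other 5 did not pass. Of 8 blood markers 2 were measured, CD68 and CD14, and neither passed. CD68 was above background in all 8 arrays at each time (mean 8.53 at 0 h). CD14 was above background in 0 of 8 arrays at 0 h and 1 of 8 at 4 h. The mean level of both genes ran from 6.70 to 7.78 at 0 h and from 6.49 to 7.99 at 4 h. Of 6 endothelial markers 3 were measured: KDR was called higher (0.43) though below background in all 16 arrays, a call lost without any 1 of 5 arrays, and VWF and TEK (0.18) did not pass. Of 8 epithelial markers 4 were measured. All 4 were above background in all 16 arrays, with mean levels at 0 h of 9.67 for KRT8, 8.51 for EPCAM, 8.19 for KRT18 and 7.01 for ELF3. EPCAM (0.06) and ELF3 (-0.22) did not pass. The keratins KRT8 (0.37) and KRT18 (-0.29) moved in opposite directions with calls that were lost without any 1 of 7 and of 10 arrays.

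Untransfected cells and cells with nonspecific siRNA answered alike in direction. Tested alone, NI arrays gave 761 higher and 837 lower genes. In the siNS arrays, which are separate libraries, 750 of the 761 (98.6%) and 819 of the 837 (97.8%) differed in the same direction, beside 71.7% of all genes, and 543 and 584 were also called. The median difference of the 761 was 0.77 in NI and 0.73 in siNS, and that of the 837 was -0.68 and -0.63. Same-numbered arrays of both states deviated together, so these are not fully independent repeats. Across the 11886 genes, which are not independent replicates, the responses had a Pearson r of 0.907.

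A test of the difference between both responses called 0 genes (0.0%) in limma, with 461 at an unadjusted p under 0.05 and a smallest adjusted p of 0.347. This does not show that the states respond alike: the median standard error of the difference was 0.17. The genes nearest to a call were CACNA1S, at -0.57 in NI and 0.44 in siNS, and NPDC1, at 0.46 in NI and -0.70 in siNS. Among the 453 genes called at 2-fold or more, the gap between the states had a median of 0.12 and reached 0.91, and 449 changed in the same direction in all 8 pairs of arrays.

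**Figure D4:**
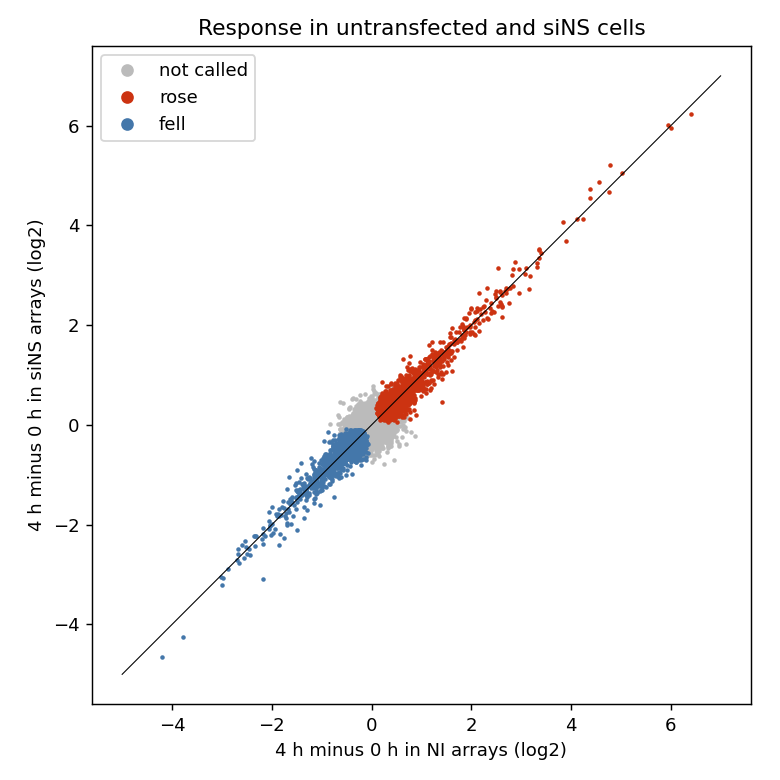
Difference between 4 h and 0 h (log2) in siNS arrays (vertical axis) against that in NI arrays (horizontal axis) for 11886 genes, coloured by the call over both states. The line marks equal differences; the largest rises and falls lie close to it in both states.

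Set against the same cells at 2 h, in 1 model of 32 control arrays, 1485 genes (12.5%) differed at 4 h, 873 higher and 612 lower. Adding slide as a block gave 457 higher and 358 lower, and leaving out the replicate block gave 528 and 314; of the 8 control arrays at 2 h, 5 lay on a slide with no control array at 4 h. Some of the largest changes had about their 4 h size by 2 h. PDK4 had a median level of 11.79 at 2 h and 11.65 at 4 h. The difference from 0 h was 4.79 at 2 h and 4.99 at 4 h for TXNIP, and -3.09 and -3.10 for HBEGF, and none of these passed the test of 4 against 2 h. Other genes moved mainly in the later interval. SGSM1, above background in 2 of 8 arrays at 2 h, went from a median level of 5.77 to 8.58 (4 minus 2 h 2.87, SE 0.16), and ADGRG2, an adhesion G protein-coupled receptor also above background in 2 of 8 arrays at 2 h, from 5.87 to 8.04.

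Late falls included TIAM2, at -0.41 at 2 h and -2.52 at 4 h (4 minus 2 h -2.12, SE 0.11), and IRS1, at -0.84 and -3.02 (-2.19, SE 0.11). NR3C2 was at -0.15 and then -1.25. TNFAIP3 went the other way, from 1.72 above 0 h at 2 h to 0.60 at 4 h (limma adjusted p = 0.00013). CCL2 fell further, from -2.65 to -4.43. These 2 and 4 h differences share their 0 h arrays, while the tests between 2 and 4 h do not use them.

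By 24 h the profile was different: 6793 genes (57.2%) differed between 24 and 4 h, 3397 higher and 3396 lower. Wells at 24 h received hormone a day earlier after transfection than those at 4 h. TEDDM1, above background in 2 of 8 arrays at 4 h, had a median level of 5.71 at 4 h and 11.48 at 24 h, and PNLIP went from 9.08 to 13.39. Against 0 h, ELFN2 was at -0.14 at 4 h (-0.38 by its other probe) and -4.21 at 24 h, and the prostaglandin transporter SLCO2A1 at 0.21 and -3.69. ARC went from 1.78 at 4 h to -2.40 at 24 h, a difference of -4.17 (SE 0.19) between the times. RTL3 came back in part, from 3.96 to 1.53, and so did IRS1, from -3.02 to -1.37. FAM90A1 went from a median level of 10.68 at 4 h to 8.38 at 24 h. TIAM2 stood at -2.52 at both times. TGFB1I1, the Hic-5 gene, was at -0.17 at 4 h and -1.06 at 24 h (24 minus 4 h -0.90, SE 0.11).

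**Figure D5:**
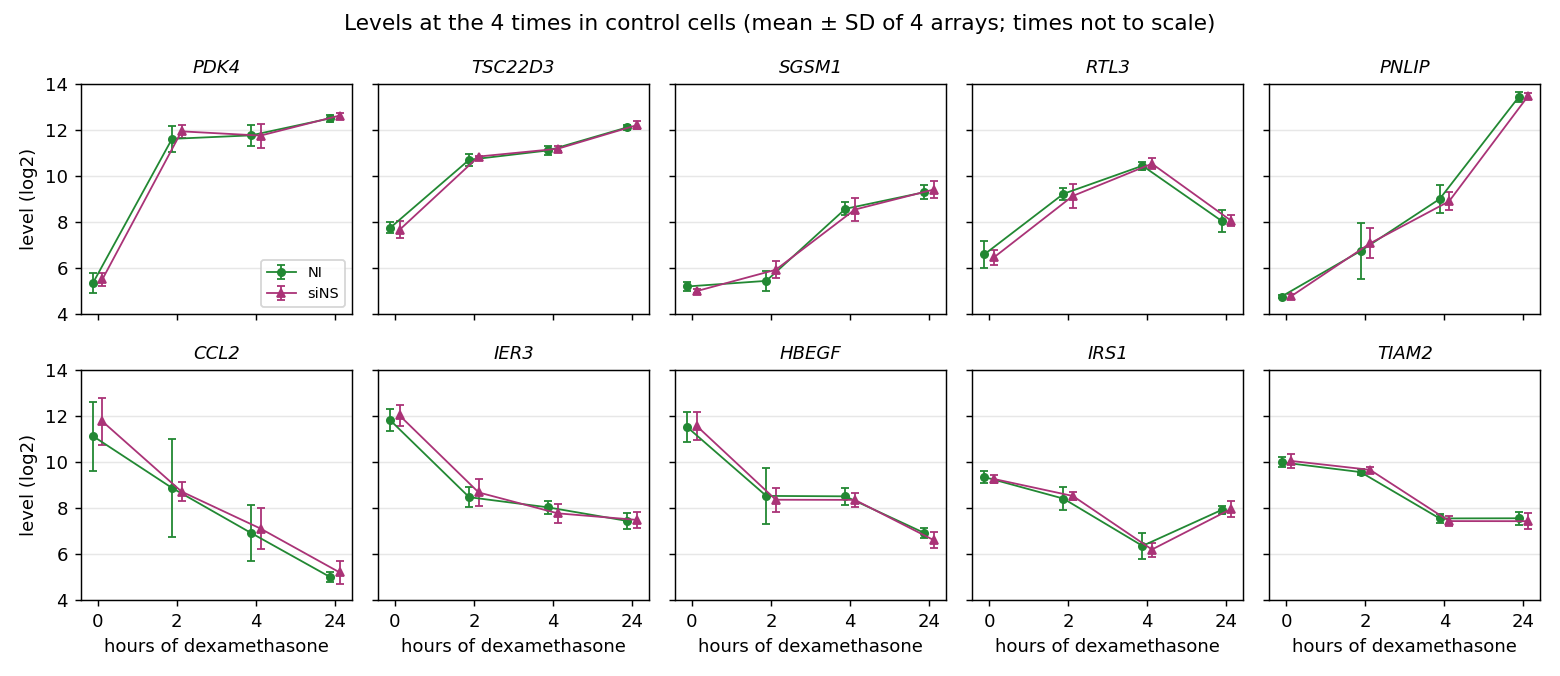
Level (log2, vertical axis) of 10 genes at 0, 2, 4 and 24 h of dexamethasone in NI (green circles) and siNS (purple triangles) cells, as mean ± SD of 4 arrays, with times evenly spaced. PDK4 and HBEGF reached their 4 h level by 2 h, SGSM1 and TIAM2 changed mainly between 2 and 4 h, and RTL3 and IRS1 moved back towards 0 h by 24 h.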

How the data were processed

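Total RNA was hybridized to Illumina bead arrays, 48 in 12 groups of 4 on 6 slides. The authors deposited raw probe intensities with detection p-values, and a table of processed log2 values; the submitters' processing notes list limma 3.14.4 and R 2.15.3, and no source used here names the normalization. No deposited p-value column matched the intensities under its own name within 0.002. For 32 of 48 arrays the intensities matched a p-value column named for another array, and for the rest no match was found. Detection p-values were therefore recomputed from 770 negative controls. The deposited log2 values ranked best with their own array's deposited intensity in 48 of 48 arrays and were used as given.

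Probes with a detection p under 0.01 on 4 or more arrays were kept (20912). GEO's platform annotation gave 1 symbol to 30113 probes, several to 8 and none to 17202 of 47323. Each of 11886 genes was read by 1 of its kept probes, that with the highest mean over the 48 arrays, and the text gives another probe's value where it differed widely. The limma 3.58.1 code (R 4.3.3, lmFit and eBayes) was tested on simulated data that held no replicate, slide or state effects. The fit had state and replicate number as blocks and 10 residual degrees of freedom, with Benjamini-Hochberg adjustment over all genes. The numbers come from the labels and were used to pair the arrays. Deviations from group means were correlated above 0.1 in 24 of 24 same-numbered pairs (0.205 to 0.75, median 0.556). Pairs of other numbers ran from -0.548 to 0.32, so the ranges overlapped. Their median of -0.177 is no separate contrast, since deviations within a group sum to 0 and positive same-numbered values force negative ones elsewhere. "At least" folds compare the brighter group with the lowest signal above background. A gene is above background on an array at a detection p under 0.01. No depth exists for arrays; their number limits the precision. Alternatives were neqc and normexp values, other scaling, filters, blocks and probe rules, and leaving out arrays, replicates or slides.

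Genes were named by rule: the 15 largest rises and falls without overlap, up to 4 called members in each direction of each gene list, all receptor genes and markers, the 6 largest changes each way between times, and the 4 smallest p each way for the difference between states. Other list members named in the text were added after their values were seen. The comparison and the gene lists were chosen with earlier results of these data known.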

Additional observations from a re-analysis of the deposited data

Results flagged for a closer look

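Of 120 sets of 4 arrays (30 genes with the largest changes, each state at each time), 4 held an array whose gap to its neighbours exceeded Dixon's critical value, which chance gives in about 1 of 20 sets. FAM90A1 was 5.13 in siNS at 0 h, replicate 1, against 4.79 to 4.84 in the others, all of them below background. TXNIP was 6.35 in siNS at 0 h, replicate 3, against 7.04 to 7.16. IRS1 was 8.94 in NI at 0 h, replicate 1, against 9.44 to 9.53. TRIM47 was 5.34 in siNS at 4 h, replicate 2, against 5.82 to 5.89. All 4 genes were still called when that array was left out, which their choice as largest changes made likely in advance.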

How the results depend on the processing

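The counts of 1380 genes higher and 1719 lower at 4 h fell most where arrays or the pairing were given up. Without the replicate block they were 887 and 995, of which 1882 in all were also among the paired calls. NI arrays alone gave 761 and 837, siNS arrays alone 718 and 849, and the arrays outside slide 3, a choice made after seeing the data that drops 5 arrays, 787 and 819. Leaving out 1 array gave 1250 to 1357 higher and 1550 to 1745 lower, and leaving out a replicate number 1097 to 1181 and 1300 to 1505. Setting every array's median to 0 gave 1568 higher and 1563 lower, and slide as a block 1269 and 1545. The counts also fell where arrays were added and the replicate block was kept. A model of all 48 arrays gave 1000 higher and 1203 lower, and 2174 of the 3099 main calls were also called in it. A model of the 32 control arrays gave 1259 and 1517. Testing all kept probes, also chosen after seeing the data, gave 1999 and 2266. Values remade from the raw intensities with neqc gave 1374 and 1709.

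For 4 against 2 h, the counts of 873 and 612 became 528 and 314 without the replicate block, 457 and 358 with slide as a block, and 535 to 652 and 411 to 440 without 1 replicate number, the lowest count of higher genes being that without replicate 3. The cause of these shifts was not tested. Over 134 called and 31 uncalled named genes, 5891 of 6257 values under another setting kept direction and call, 351 lost the call, 14 gained it and 1 turned: NPDC1, at 0.46 in NI arrays alone (limma adjusted p = 0.0194). Small calls rest on few arrays, and low signal limits genes below background, which have only a bound at that time.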
